A study of Mus musculus with 294 samples.

Results

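The fibrinogen chains are the products of Fga, Fgb and Fgg, and their liver RNA was described here in 294 mice from an F2 cross of B6/J with A/J, both inbred strains. They were found by their symbols in the annotation of the array, which gave 1 probe for each, so that 3 of 16643 measured genes are described. The animals form a single group with 1 Affymetrix liver array each, and no treatment, age or sex is stated for any of them. Their titles open with a number, and by its leading 3 digits they fall into 15 blocks, the smallest of 17 and the largest of 23 animals. What such a label block stands for is unknown. No animal was measured more than once, so the spread between animals holds both biological and technical variation.

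Fibrinogen is the plasma protein that thrombin turns into the fibrin of a clot. Hepatocytes make it from an alpha chain (Fga), a beta chain (Fgb) and a gamma chain (Fgg), which are assembled in the endoplasmic reticulum, each molecule holding a pair of every chain. Its genes belong to the acute phase response: interleukin 6 acts through the receptor subunit IL6ST and Janus kinases on the transcription factor STAT3, which raises fibrinogen transcription in hepatocytes during inflammation. The chains lie side by side in the RefSeq gene order of mouse chromosome 3, with Lrat and Plrg1 as the nearest measured genes on either side.

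The sequences before the 3 transcription starts are shown because the chains varied together with Stat3. Each is the 250 bases before the start that RefSeq gives on GRCm38.p6, read 5′ to 3′ on the strand of the gene, at chr3:83025903-83026152 on the plus strand for Fga, chr3:83049864-83050113 on the minus strand for Fgb and chr3:83007474-83007723 on the plus strand for Fgg. Capitals mark CTGGGA, searched on both strands, the core of the interleukin 6 response element described in rat fibrinogen genes.
Fga: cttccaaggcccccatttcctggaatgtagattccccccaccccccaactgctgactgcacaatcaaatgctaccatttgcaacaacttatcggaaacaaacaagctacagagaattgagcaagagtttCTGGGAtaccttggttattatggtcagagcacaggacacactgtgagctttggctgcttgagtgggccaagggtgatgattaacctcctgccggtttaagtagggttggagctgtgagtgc
Fgb: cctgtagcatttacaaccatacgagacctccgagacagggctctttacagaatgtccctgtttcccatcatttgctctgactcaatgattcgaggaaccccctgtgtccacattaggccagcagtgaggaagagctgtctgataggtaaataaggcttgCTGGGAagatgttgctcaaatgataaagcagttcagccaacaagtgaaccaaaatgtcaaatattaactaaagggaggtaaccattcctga
Fgg: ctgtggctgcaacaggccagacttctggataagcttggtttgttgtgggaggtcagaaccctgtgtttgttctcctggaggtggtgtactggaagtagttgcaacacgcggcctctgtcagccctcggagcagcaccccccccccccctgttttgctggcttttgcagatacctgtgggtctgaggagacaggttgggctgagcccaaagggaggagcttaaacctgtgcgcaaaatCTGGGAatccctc

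CTGGGA began 91 bases before the start of Fgb and 13 bases before that of Fgg, and in Fga it lay farther upstream, on the strand of the gene each time. It was present in all 3 chains, and in 27% of 32851 promoter windows of the same length, so a match is common. TTGCNNAA, a form of the C/EBP site, matched in 2 of 3 chains, against 9.56% of the windows: the match in Fga lay on the other strand, upstream of CTGGGA, and that in Fgb lay on the strand of the gene, downstream of CTGGGA, and began 80 bases before the transcription start. Neither match shares a base with CTGGGA. The HNF1 motif (0.00913% of windows) and the TATA box letters TATAAA (12.4% of windows) were in none of the 3 windows. The HNF1 motif was searched in a single strict form, which only 3 of 32851 windows held. Its absence was therefore likely for any set of 3 windows, and no conclusion on HNF1 sites is drawn from it. Looser forms of the HNF1 site were not searched. The matches described above concern letters only, and binding was not measured.

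All 3 chains were among the brightest genes of the liver arrays, and each varied little between animals. Fga had a log2 intensity of 13.44 in the lowest animal, 13.64 in the median animal and 14.07 in the highest, with a mean of 13.65 ± 0.09 (SD, n = 294). Fgb ran through 13.33, 13.73 and 14.29, with a mean of 13.73 ± 0.13 (SD, n = 294), and Fgg through 13.01, 13.44 and 13.86, with a mean of 13.43 ± 0.12 (SD, n = 294). The highest value of any probe in the table was 14.64 on the same scale. Levels of different probes are not compared with each other here, because probes differ in how brightly they report the same amount of RNA.

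The 90th percentile of the animals exceeded the 10th by 1.15-fold for Fga, 1.23-fold for Fgb and 1.22-fold for Fgg, where the median gene spanned 1.38-fold and the median of the bright genes named below 1.24-fold. Between the most distant animals the range was 1.54-fold for Fga, 1.94-fold for Fgb and 1.81-fold for Fgg. Only 0.391% of genes had a smaller SD than Fga, against 6.86% for Fgb and 4.57% for Fgg. Among genes with a mean log2 intensity above 12, however, 18.1% had a smaller SD than Fga, 49.5% than Fgb and 45.6% than Fgg, which put Fgb and Fgg near the middle of the bright genes. The distribution of Fga had a small upper cluster of 5 animals, found by a mixture of normals, and correlations with Fga were therefore taken over the remaining animals.

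**Figure D1:**
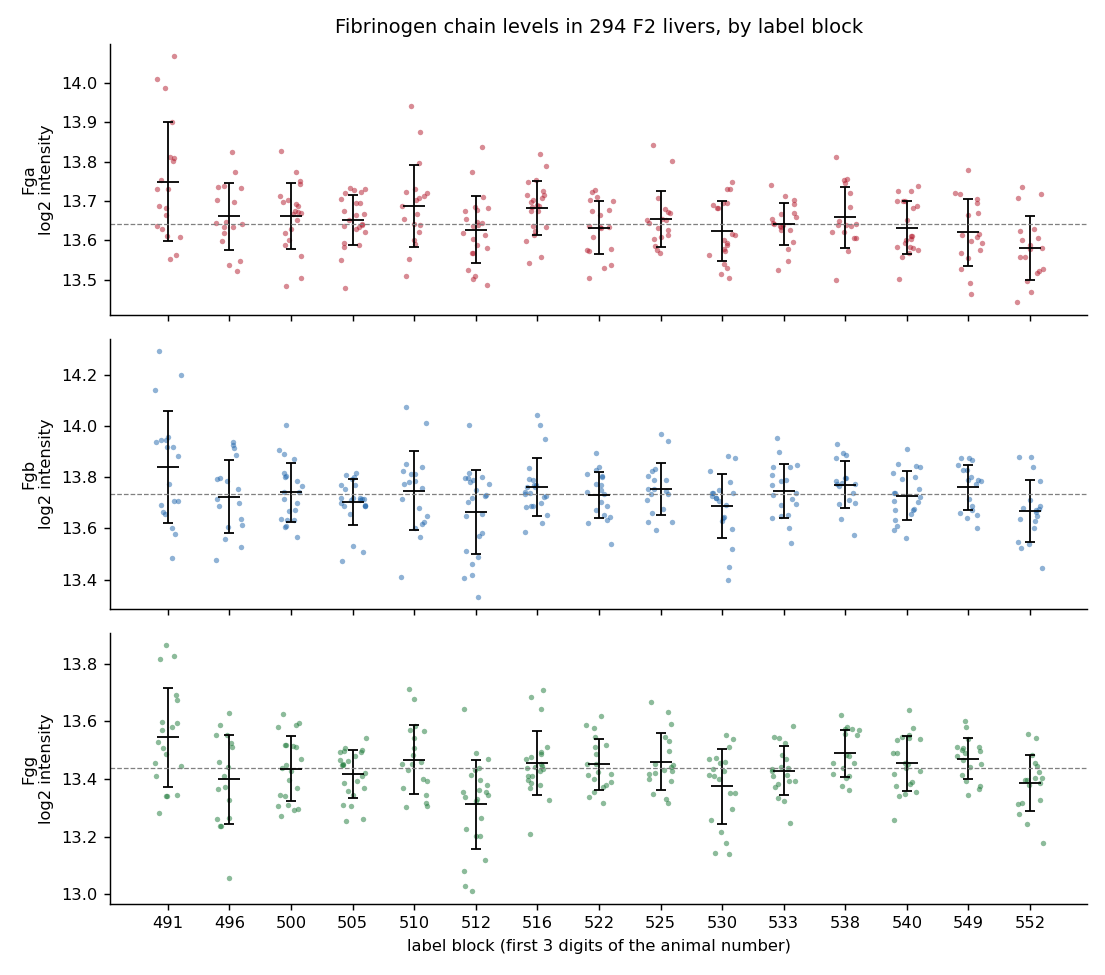
Log2 intensity of Fga, Fgb and Fgg (vertical axes) in each of 294 animals, by label block (horizontal axis); bars are the block mean and SD, and the dashed line is the median of all animals. The leftmost block holds the highest mean of every chain (13.75, 13.84 and 13.54) and the 3 highest animals of every chain.

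The leftmost block in the plot of levels by block had the highest mean of every chain, with 13.75 ± 0.15 for Fga, 13.84 ± 0.22 for Fgb and 13.54 ± 0.17 for Fgg (log2, SD, n = 19). A block of 23 animals was lowest for Fgb (13.66 ± 0.17) and Fgg (13.31 ± 0.15, n = 23), and the rightmost was lowest for Fga (13.58 ± 0.08, n = 18). The blocks took up 16.4% of the variance of Fga, 10.9% of that of Fgb and 18.7% of that of Fgg, where the median gene had 7.01%. By limma's moderated F test with Benjamini-Hochberg adjustment over all genes, the blocks differed for Fga (adjusted p = 9.24e-05), Fgb (0.0136) and Fgg (3.69e-06), as they did for 32.7% of all genes. The call rested in part on 27 arrays that correlated least with the others. Without them the adjusted p was 0.0335 for Fga, 0.463 for Fgb and 0.0665 for Fgg.

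The 4 highest chain means, the average of the log2 values of the 3 chains, were 14.06, 14.02, 13.98 and 13.91. The first 3 of these animals belonged to the leftmost block, and the 4 animals held ranks 1 to 4 in each chain. They ranked between 2 and 10 of 294 in Stat3 and between 1 and 10 in Saa2, Lcn2 and a score over acute phase genes. The 4 lowest chain means, 13.31, 13.32, 13.34 and 13.36, came from 3 animals of the block lowest in Fgb and Fgg and 1 of another. All 4 were among the 10 lowest animals in Fgb and in Fgg. Their Fga values were 13.50, 13.51, 13.62 and 13.54 and their Stat3 values 8.53, 8.51, 8.73 and 9.02 (log2), with 13.64 and 8.64 in the median animal. All 8 arrays belonged to the 27 least correlated ones, so several results below are also given without those arrays. Where no such value is given, the result includes them and may rest in part on the ends of the range.

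The 3 chains rose and fell together over the animals, Fgb and Fgg most closely. Fgb and Fgg correlated at r = 0.902 (95% interval 0.878 to 0.921, rho = 0.874, n = 294). Fga correlated with Fgb at r = 0.643 (0.57 to 0.706, rho = 0.625) and with Fgg at r = 0.655 (0.584 to 0.716, rho = 0.638), both without its 5 upper animals. The permutation p of each of the 3 values of r and of rho was 1e-05 before and after Benjamini-Hochberg adjustment over the 3 pairs, the smallest that 100000 two-sided permutations can give. Without the 2 animals farthest from the median, r was 0.628 for Fga with Fgb, 0.642 for Fga with Fgg and 0.894 for Fgb with Fgg.

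All 3 correlations were positive within 15 of 15 label blocks, between 0.235 and 0.913 for Fga with Fgb, 0.479 and 0.903 for Fga with Fgg, and 0.774 and 0.96 for Fgb with Fgg. Leaving out the 27 least correlated arrays, they were 0.624, 0.633 and 0.86 in the same order of pairs. A single direction carried 88% of the variance of the 3 chains. The interval of Fgb with Fgg did not overlap that of either pair that includes Fga.

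**Figure D2:**
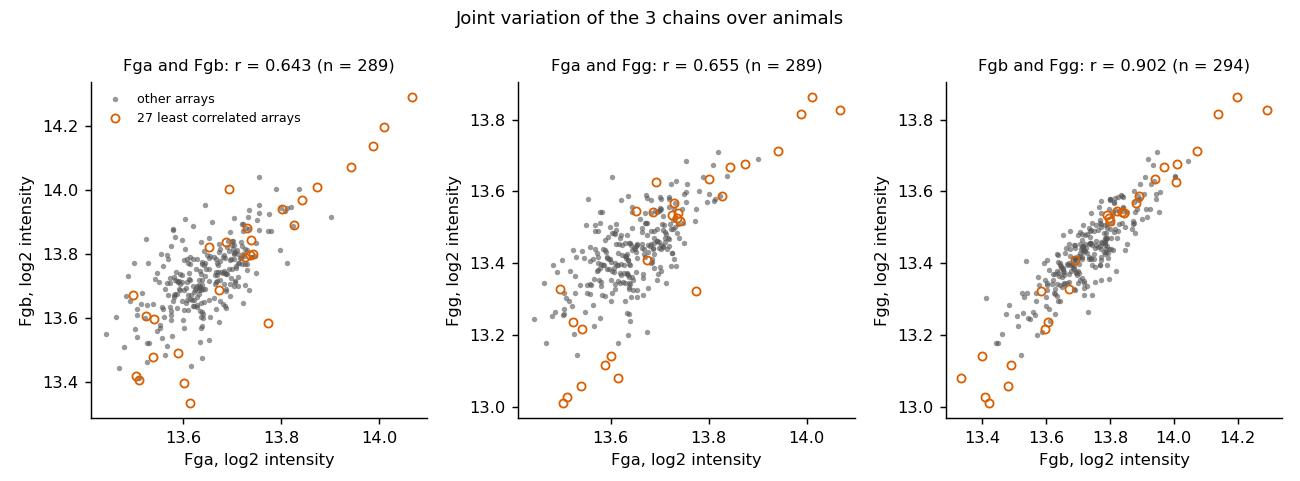
Log2 intensity of 1 chain against another for the 3 pairs, 1 point per animal, with the 27 least correlated arrays as open circles; the r above each panel leaves out the upper cluster of Fga where Fga is plotted. Fgb and Fgg lie along a narrow line (r = 0.902), and the pairs with Fga are wider (0.643 and 0.655).

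Chain ratios were described as differences of log2 intensities around their median, since the level of a difference between probes has no meaning. Fgb minus Fgg had an SD of 0.0567 (95% interval 0.0525 to 0.0617) and a 90th to 10th percentile range of 1.1-fold. Fga minus Fgb had an SD of 0.0917 (0.0848 to 0.0997) and spanned 1.16-fold, and Fga minus Fgg had an SD of 0.0869 (0.0804 to 0.0945) and spanned 1.15-fold. The intervals of both differences with Fga lay above that of Fgb minus Fgg. The extreme animals lay 0.24 below and 0.37 above the median in Fga minus Fgb, 0.25 below and 0.32 above in Fga minus Fgg, and 0.19 below and 0.17 above in Fgb minus Fgg. Quantile normalization raised the SD of Fgb minus Fgg to 0.0705.

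Fga minus Fgb fell with the chain mean (r = -0.534 over 294 animals, a description, since both hold the same chains), and Fga minus Fgg did likewise (-0.489), while Fgb minus Fgg had r = 0.113. Fga thus spanned a narrower range than the chains it was set against. The label blocks held 7.96% of the variance of Fga minus Fgb, 21.6% of that of Fga minus Fgg and 13.7% of that of Fgb minus Fgg.

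Stat3, the transcription factor that interleukin 6 activates, was higher in animals with higher fibrinogen RNA. Its brightest probe had a log2 intensity of 8.06 in the lowest animal, 8.64 in the median animal and 9.81 in the highest, with a mean of 8.69 ± 0.33 (SD, n = 294) and a 90th to 10th percentile range of 1.75-fold. Stat3 correlated with the chain mean at r = 0.624 (95% interval 0.549 to 0.689, rho = 0.56, n = 294) and rose by 0.21 ± 0.015 on the log2 scale per SD of the chain mean (SE, limma, adjusted p = 3.42e-30). The permutation p of r and of rho was 1e-05, adjusted 1.17e-05 over the 7 relations of Stat3 with the chains and their differences, and r without the 2 most distant animals was 0.592.

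The relation of Stat3 to the chain mean was positive in 15 of 15 label blocks, with r between 0.283 and 0.832, and it was 0.598 without the 27 least correlated arrays. By chain, r was 0.512 for Fga (rho = 0.478, without its 5 upper animals), 0.626 for Fgb (rho = 0.568) and 0.519 for Fgg (rho = 0.465), each with the same smallest p. Of the other 2 Stat3 probes, the brighter followed the chain mean at r = 0.638 and the dim one, at a mean of 4.68, at r = 0.358. With the first 5 principal components over all genes removed, r of the brightest Stat3 probe with the chain mean was 0.435 (limma adjusted p = 2.78e-12). The fifth of these components had r = 0.647 with the chain mean. This setting, added after the data were seen, thus also removes part of the variation of the chains themselves, here and wherever it is used below. Stat3 mRNA is what the array reports, and the phosphorylation that activates the protein was not measured.

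Stat3 was related to the balance of the chains, which is not independent of the chain mean that Stat3 followed at r = 0.624. Fga minus Fgb had r = -0.534 with the chain mean and Fgb minus Fgg 0.113. Whether Stat3 follows the differences at a given chain mean was not tested. It correlated with Fga minus Fgb at r = -0.308 (rho = -0.31) and with Fgb minus Fgg at r = 0.306 (rho = 0.276), both with adjusted permutation p = 1.17e-05, so that livers rich in Stat3 RNA had more Fgb relative to either other chain. For Fga minus Fgg, r was -0.126 (n = 284, adjusted permutation p = 0.0335) and rho was -0.112 (p = 0.0585), and limma gave an adjusted p of 0.0837, although 4 alternatives called it (with the block as covariate, r = -0.212, adjusted p = 0.00254). Stat3 lost its call with Fgb minus Fgg when 5 principal components were removed (r = 0.161, adjusted p = 0.073), and this r was 0.353 above the gap in Eif2s3y described further on and 0.173 below it. Within label blocks the relation was negative in 14 of 15 blocks for Fga minus Fgb and positive in 13 of 15 for Fgb minus Fgg.

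**Figure D3:**
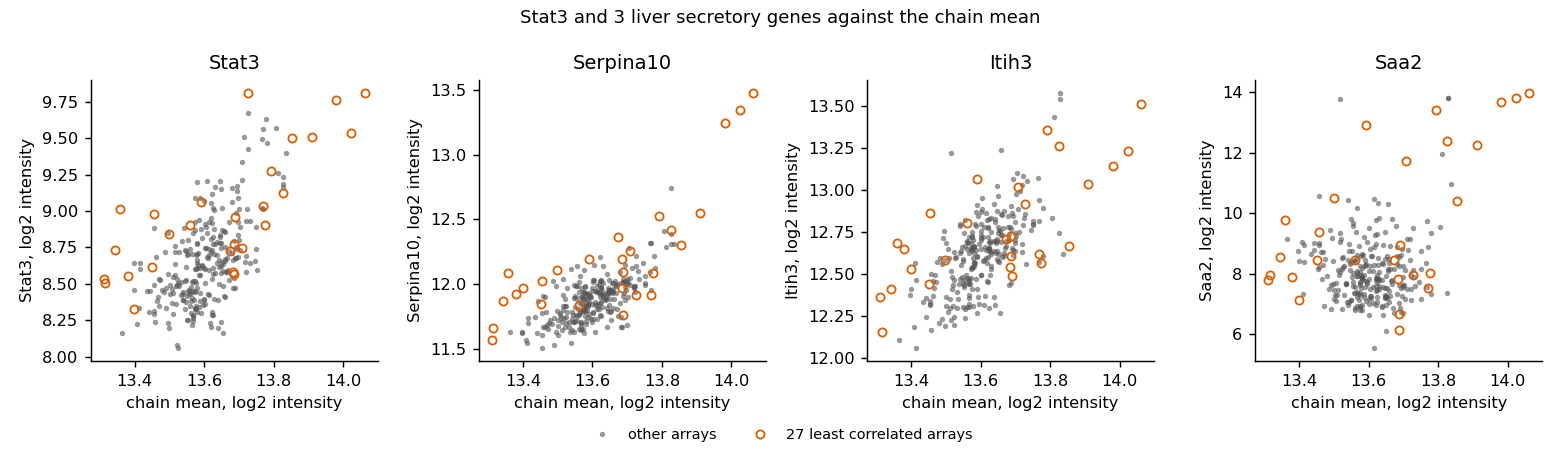
Log2 intensity of Stat3, Serpina10, Itih3 and Saa2 (vertical axes) against the mean log2 intensity of the 3 chains (horizontal axes), 1 point per animal, with the 27 least correlated arrays as open circles. Stat3, Serpina10 and Itih3 rise with the chain mean, but not evenly at its low end. There the 4 lowest animals had Stat3 values of 8.53, 8.51, 8.73 and 9.02, with 8.64 in the median animal. Most Saa2 values form a body without a slope (r = -0.106) below a scattered upper group.

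Induced acute phase genes were mostly higher where fibrinogen was higher. Over all genes, limma called 31.7% as related to the chain mean (5281 of 16640, adjusted p under 0.05), of which 14.4% of all genes were positive and 17.4% negative. Of 27 measured acute phase genes, 23 were positive and 0 negative, with a median r of 0.36 against -0.026 over all genes. Without the 27 least correlated arrays 20 were positive and 0 negative, where the shares over all genes were 9.54% and 11.6%.

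The members of highest r encode secreted plasma proteins. From here on r is over 294 animals, or over the main cluster where a gene has an upper or lower group of animals. Permutation p-values are for r and rho over all 294 animals and are adjusted over 16640 genes. With the chain mean, 8.4e-05 for r and 0.00013 for rho are the smallest that the permutations can give. The genes of this paragraph had them, over all animals and not over a main cluster. Itih3, a heavy chain of the inter-alpha-trypsin inhibitor, had log2 intensities of 12.06, 12.64 and 13.58 in the lowest, median and highest animals and r = 0.598 (rho = 0.596) without 9 animals of a separate cluster. Cp, the copper carrier ceruloplasmin, had r = 0.58 (rho = 0.564, 0.569 without the 2 most distant animals). Lrg1, a leucine-rich glycoprotein, had r = 0.617 (rho = 0.528, 0.572 without 2), and Itih4 had r = 0.575 (rho = 0.503, 0.528 without 2). The serine protease inhibitor gene Serpina3n had r = 0.444 (rho = 0.417) without 12 such animals and Crp, which encodes C-reactive protein, 0.501 (rho = 0.418) in 292. Fgl1, a fibrinogen-like protein of hepatocytes that was picked after its value was seen, had r = 0.525 (rho = 0.511, 0.508 without 2).

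For Saa2 and Lcn2 the pooled and within-cluster values differed. Saa2, a serum amyloid A protein, had log2 intensities of 5.54, 7.96 and 13.99 in the lowest, median and highest animals, a far wider range than any chain. Over all animals limma gave it a positive slope of 0.39 on the log2 scale per SD of the chain mean (adjusted p = 3.17e-06), but rho was 0.00747, r was -0.106 within its main cluster, which leaves out 21 animals, and without the 27 least correlated arrays the adjusted p was 0.383. Lcn2, the siderophore-binding lipocalin, had log2 intensities of 4.28, 7.21 and 13.62, with a limma call over all animals (adjusted p = 1.94e-07), rho = 0.111 (adjusted permutation p = 0.162) and r = 0.0783 within 284 animals. Saa2 and Lcn2 were chosen after their values were seen. Hamp, which encodes the iron hormone hepcidin, had r = 0.0817 without 12 animals of a separate cluster and Cebpd, a C/EBP factor, r = -0.0815 (rho = -0.0781), and limma called neither.

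A score that averages the standardised levels of the 27 acute phase genes split into 11 high animals and the rest. Within the rest, its r was 0.535 with the chain mean (rho = 0.535, 95% interval 0.446 to 0.613), 0.51 with Fga, 0.515 with Fgb and 0.441 with Fgg. Within the 11 high animals r with the chain mean was 0.557. The relation was positive in 15 of 15 label blocks, from 0.119 to 0.851. The differences that include Fga fell with the chain mean, so their relations to the score are not separate from that of the chain mean. With the chain differences, r of the score was -0.223 for Fga minus Fgb, -0.124 for Fga minus Fgg and 0.169 for Fgb minus Fgg. By class of the Y-linked gene Eif2s3y, described further on, these values were -0.243 above its gap and -0.128 below it, -0.206 above and -0.102 below, and 0.074 above and 0.0502 below in the same order of differences.

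Of 22 interleukin 6 signalling genes, 9 were positive and 1 negative, where 14.4% and 17.4% of all genes were, with a median r of 0.0989. The positive members included kinase, receptor and feedback genes, while Il6ra, the interleukin 6 receptor gene, was not called. Jak1, the kinase at the receptor, had r = 0.521 (rho = 0.454, 0.507 without 2) and Il6st, the shared signalling subunit, 0.357 (rho = 0.31, 0.308 without 2). Il1r1 and Osmr, receptor genes for interleukin 1 and oncostatin M, had r = 0.51 (rho = 0.481) and 0.458 (rho = 0.396). Socs3, the feedback inhibitor that STAT3 induces, had 0.501 (rho = 0.433, 0.441 without 2). Each of these 5 carried the smallest adjusted permutation p, and Il6st had r = 0.0312 with 5 principal components removed (limma adjusted p = 0.787), an alternative added after the data were seen. The negative member was Pias3, which encodes an inhibitor of STAT3, at r = -0.207 (rho = -0.196, limma adjusted p = 0.00198), and its adjusted p was 0.0565 without the 27 least correlated arrays. Stat5a had r = -0.13 and did not pass the test.

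Of 14 hepatocyte transcription factors, 5 were positive and 0 negative, where 14.4% and 17.4% of all genes were, and the median r was 0.0683. Foxa3 led with r = 0.339 (rho = 0.388), followed by Hnf4a at 0.269 (rho = 0.276), Nr5a2 at 0.246 (rho = 0.187) and Prox1 at 0.207 (rho = 0.188). The permutation p of each passed 0.05 after adjustment over all genes. Cebpa had r = -0.0958 and did not pass the test. Ppara had r = -0.135 (limma adjusted p = 0.0596) and was called as negative in 6 alternatives, with r of -0.247 with the block as covariate, -0.22 with the mean of all probes and -0.187 without the 27 least correlated arrays. Nr5a2 lost its call without those arrays (r = 0.123, adjusted p = 0.146). After the first 5 principal components were removed, 19.7% of genes were called with the chain mean. Prox1 then had r = -0.177 (limma adjusted p = 0.0166), so the sign of its relation depends on that step. Hnf4a had r = -0.0481 (adjusted p = 0.65) and Nr5a2 0.0923 (adjusted p = 0.297), and neither was called.

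Negative acute phase genes, whose plasma products fall during inflammation, went both ways. Of 9 measured, 4 were positive and 3 negative, where 14.4% and 17.4% of all genes were, with a median r of 0.0439. Fetub had r = 0.441 (rho = 0.439) and Ahsg, fetuin A, 0.302 (rho = 0.335). Alb, albumin, had r = 0.196 (rho = 0.26, limma adjusted p = 0.0111). The call of Alb was lost without the 44 animals high in pancreas, muscle or neutrophil genes (r = 0.164, adjusted p = 0.0755) and with 5 components removed (0.127, 0.202). Apoa2, an apolipoprotein of HDL, had r = -0.41 (rho = -0.286) and Rbp4, the retinol carrier, -0.274 (rho = -0.129, adjusted permutation p = 0.091 for rho). Without the 27 least correlated arrays the limma adjusted p of Rbp4 was 0.203. With those arrays out, 6 members were positive and 1 negative, where 9.54% and 11.6% of all genes were.

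Coagulation genes beyond fibrinogen followed the chains in many cases. Of 26 measured, 15 were positive and 1 negative, with a median r of 0.212, and without the 27 least correlated arrays 21 were positive and 0 negative. The shares over all genes were 14.4% and 17.4%, and without those arrays 9.54% and 11.6%. Serpina10, the protein Z-dependent protease inhibitor, had the highest r of all genes with the chain mean. Its log2 intensity was 11.51 in the lowest animal, 11.90 in the median animal and 13.48 in the highest, with r = 0.721 (95% interval 0.661 to 0.772, rho = 0.623, 0.678 without 2) and a slope of 0.17 on the log2 scale per SD of the chain mean. Cpb2, the fibrinolysis inhibitor TAFI, had log2 intensities of 11.18, 11.62 and 12.70 and r = 0.667 (rho = 0.551, 0.61 without 2).

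The complement and contact system inhibitor gene Serping1 had r = 0.507 (rho = 0.532), Vtn, vitronectin, 0.503 (rho = 0.48), F9, coagulation factor IX, 0.454 (rho = 0.342) and Kng1, kininogen, 0.403 (rho = 0.448). These carried the smallest adjusted permutation p. Klkb1, plasma prekallikrein, was the negative member at r = -0.166, yet its rho was 0.157, r was 0.0963 without the 2 most distant animals and 0.0821 without the 27 least correlated arrays, so its sign is not settled. Serpinc1, antithrombin, had r = -0.126 and did not pass the test, but was called under quantile normalization (r = -0.295, adjusted p = 6.55e-06) and with the Eif2s3y class as covariate (-0.189, 0.00871). Of 12 genes of fibrinolysis and fibrin binding, 3 were positive and 0 negative, where 14.4% and 17.4% of all genes were, with a median r of -0.0117. Icam1, which encodes an adhesion molecule that binds fibrinogen, was highest at r = 0.27 (rho = 0.235), against 0.073 with 5 components removed (adjusted p = 0.437).

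Genes of the secretory pathway, in which the chains are assembled and exported, were positive in 20 of 25 cases and negative in 0. Their median r was 0.233, and 14.4% of all genes were positive and 17.4% negative. Dnajc3, a chaperone of the endoplasmic reticulum, had r = 0.364 in its main cluster of 290 animals. Hsp90b1, the HSP90 of the endoplasmic reticulum, had r = 0.475 (rho = 0.305, 0.405 without 2), Xbp1, the transcription factor of the unfolded protein response, 0.471 (rho = 0.449, 0.44 without 2) and Atf4 0.383 (rho = 0.297, 0.298 without 2). The cargo receptor gene Lman1 had r = 0.318 (rho = 0.166, adjusted permutation p = 0.021 for rho). With the 27 least correlated arrays left out, 6 were positive and 1 negative, where 9.54% and 11.6% of all genes were, with a median r of 0.105. Most of the count over all animals thus rested on those arrays, and Lman1 lost its call without them (r = 0.137, adjusted p = 0.0976). Hsp90b1 (r = 0.128, adjusted p = 0.111), Dnajc3 (0.125, 0.123) and Atf4 (0.0276, 0.814) lost theirs with 5 components removed. The lowest r in this list without a call was that of Sec61b (-0.135), and Herpud1 had -0.0427.

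**Figure D4:**
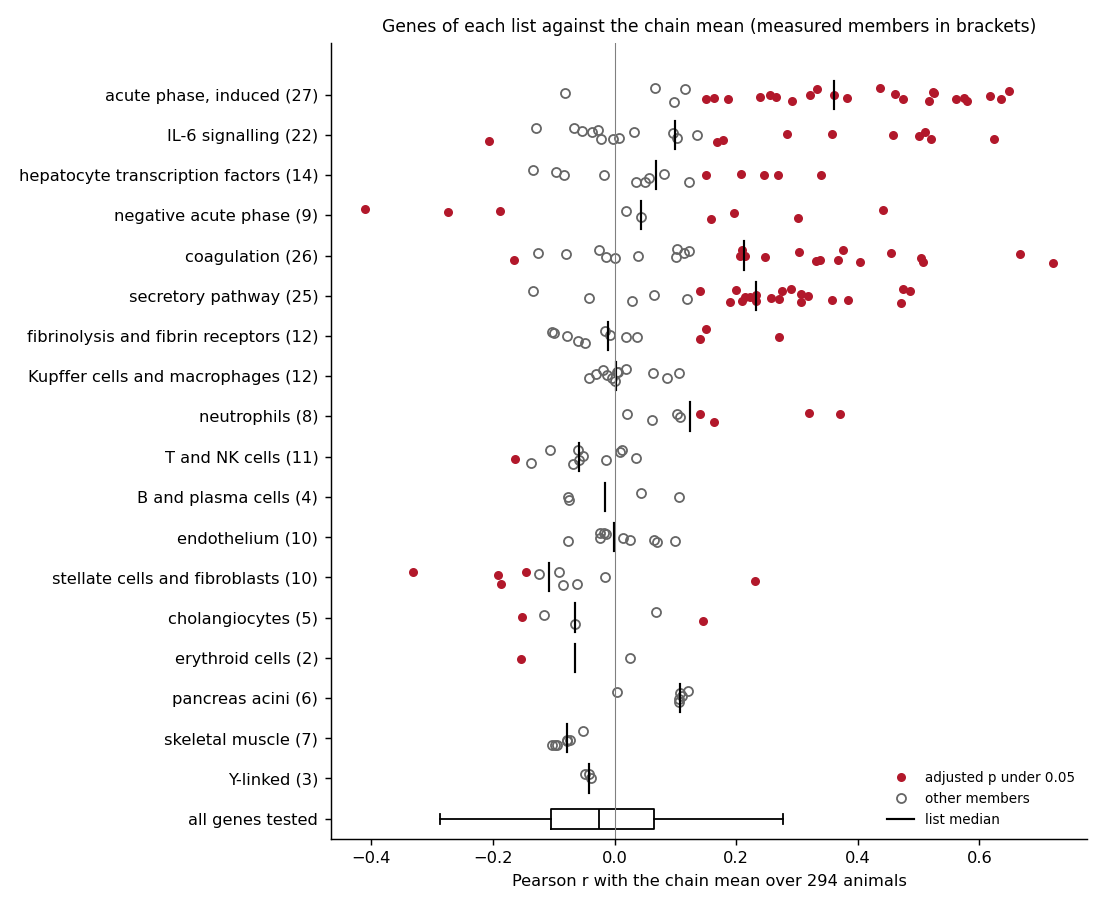
Pearson r of each measured list member with the chain mean over 294 animals (horizontal axis), by list (rows, with the number measured); filled points passed the limma test, bars are list medians, and the box at the foot shows all genes tested with whiskers at the 5th and 95th percentiles. The medians of the acute phase (0.36), secretory (0.233) and coagulation (0.212) lists lie to the right of the box of all genes.

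Over all animals, few markers of other liver cells passed the test with the chain mean, apart from neutrophil genes and collagens. Fewer cells of a type and less RNA per cell cannot be told apart in these samples. Of all genes, 14.4% were positive and 17.4% negative. None of 12 Kupffer cell and macrophage markers passed in either direction (0 positive and 0 negative, median r 0.00223), and the same held for 10 endothelial, 4 B and plasma cell, 6 pancreas acinar and 7 skeletal muscle markers. Among 11 T and NK cell markers 0 were positive and 1 negative, and among 5 cholangiocyte markers 1 was positive and 1 negative. The 2 erythroid markers gave 0 positive and 1 negative. Of 8 neutrophil markers 4 were positive and 0 negative: S100a9 had r = 0.371 (rho = 0.292) and S100a8 0.319 (rho = 0.223), while the granule genes Mpo and Ngp, called over all animals, had r = 0.0596 and -0.0486 in their main clusters of 292 and 288 animals. The mean log2 intensity over the 8 neutrophil markers ran from 3.7 to 8.33 with a median of 4.04. Of 10 stellate cell and fibroblast markers 1 was positive and 4 negative, with Col3a1, collagen III, at r = -0.331 (rho = -0.236) and their mean log2 intensity between 6.64 and 8.35. Once the 27 least correlated arrays were left out, 2 neutrophil markers were positive, 1 stellate cell marker was positive and 2 were negative, and 4 of 10 endothelial markers were positive. In that setting 9.54% of all genes were positive and 11.6% negative. With 5 components removed, 5 of 12 Kupffer cell and macrophage markers (median r -0.134) and 6 of 11 T and NK cell markers (median r -0.181) were negative, against 8.86% of all genes, and S100a8 (r = 0.128, limma adjusted p = 0.11) and Col3a1 (-0.126, 0.119) lost their calls. The part of these cells in the relations above was not tested.

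Outside the lists, the 15 genes of highest r with the chain mean lay between 0.547 and 0.687. Osbpl9, an oxysterol-binding protein relative, led with log2 intensities of 9.74, 10.36 and 10.93 and r = 0.687 (rho = 0.553, 0.68 without 2). Il13ra1, an interleukin 13 receptor chain, had log2 intensities of 6.29, 7.44 and 8.87 and r = 0.666 (rho = 0.579, 0.644 without 2). Fndc3b had r = 0.637 (rho = 0.535), the zinc and iron transporter gene Slc39a14 0.607 (rho = 0.509), the cholesterol exporter gene Abca1 0.592 (rho = 0.564) and Fn1, which encodes the clot-binding protein fibronectin, 0.55 (rho = 0.472). All of these passed with the smallest adjusted permutation p.

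The genes of lowest r were Dgcr6 (-0.64, rho = -0.571), Spc24, a kinetochore gene (-0.628, rho = -0.579), Acot7, an acyl-CoA thioesterase (-0.615, rho = -0.562), and Uqcrc1, a core protein of respiratory complex III (-0.589, rho = -0.526). Without the 2 most distant animals r was -0.609, -0.59, -0.575 and -0.579 in that order, and each again had the smallest adjusted permutation p. The lens crystallin relative Cryl1 had r = -0.54 without 3 animals of a separate cluster. Their fold ranges between the 90th and 10th percentiles were 1.35 for Dgcr6, 2.07 for Spc24, 1.4 for Acot7 and 1.23 for Uqcrc1.

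Chosen by r over all animals, the genes most like each single chain differed in part. For Fga, with r taken without its 5 upper animals, they were Serpina10 (r = 0.578), Slc39a14 (0.543), Stat3 (0.512) and Lrg1 (0.486), and Serpina3n had 0.435 in its own main cluster. For Fgb they were Serpina10 (0.703, rho = 0.628), Osbpl9 (0.68, rho = 0.547), Il13ra1 (0.673, rho = 0.581), Stat3 (0.626, rho = 0.568) and Itih3 (0.609 in its main cluster). For Fgg they were Cpb2 (0.677, rho = 0.6), Osbpl9 (0.673, rho = 0.534), Abca1 (0.649, rho = 0.602), Thoc1 (0.648, rho = 0.528) and Cul1 (0.646, rho = 0.497). Limma called 26.3% of genes with Fga, 32.7% with Fgb and 33.3% with Fgg. The adjusted permutation p was 0.000113 for r and 0.000205 for rho with Fga, 9.36e-05 and 0.000158 with Fgb, and 7.24e-05 and 0.000112 with Fgg, the smallest possible in each case. Each belongs to r and rho over all 294 animals, not to values given without a cluster. These are the genes of most similar level pattern over the animals, and the comparisons share the chain values.

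The chain differences were described in the same way as the chains. With Fga minus Fgb, limma called 27.9% of genes, and the 6 highest were Pi4kb (r = 0.555, rho = 0.547), Slc22a15 (0.462, rho = 0.462), Asic5, Tmod4 (0.434, rho = 0.432), Cideb (0.418, rho = 0.379) and Tmem109 (0.414, rho = 0.379). The 6 lowest were Nasp (-0.495, rho = -0.404), Jak1 (-0.489, rho = -0.464), Aadac (-0.485, rho = -0.533), Usp1 (-0.477, rho = -0.406), Glt28d2 (-0.477, rho = -0.524) and Smc3 (-0.471, rho = -0.407). The adjusted permutation p was 0.000177 for r and 0.000324 for rho in each, the smallest possible. Of these 12, Pi4kb, Slc22a15, Asic5, Tmod4, Aadac and Glt28d2 lie on chromosome 3.

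Pi4kb, a phosphatidylinositol kinase gene that lies 174 measured genes from the fibrinogen cluster, was positive with Fga (r = 0.335, rho = 0.329 without the 5 upper animals) and negative with Fgb (r = -0.156, rho = -0.195, limma adjusted p = 0.0258). Aadac, a microsomal esterase gene 70 genes away on the other side, was negative with Fga (r = -0.382, rho = -0.377 without them) and had r = 0.0274 (rho = 0.125) with Fgb, which did not pass the limma test (adjusted p = 0.763). Asic5, an ion channel gene 8 genes away, fell into clusters of 220 and 74 animals, and its pooled r of 0.446 with Fga minus Fgb was 0.125 within the larger and -0.208 within the smaller cluster, so that its relation lay between the clusters.

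Chromosome 3 holds 5.09% of the placed genes, and 9 of the 24 genes of largest absolute r with Fga minus Fgb were on it. For Fga minus Fgg and Fgb minus Fgg the number was 2 of 24 each. With the first 5 principal components removed, it was 23 of 24 for Fga minus Fgb, 24 of 24 for Fga minus Fgg and 3 of 24 for Fgb minus Fgg. In that setting 11.2% of all genes were called with Fga minus Fgb, 5.99% with Fga minus Fgg and 6.38% with Fgb minus Fgg. Over all animals with no component removed, the share called was 32.7% of chromosome 3 genes against 27.7% of the others for Fga minus Fgb, 34.2% against 33% for Fga minus Fgg, and 30.5% against 33.7% for Fgb minus Fgg. With the components removed it was 19.6% of chromosome 3 genes against 10.7% of the others for Fga minus Fgb, 14.3% against 5.56% for Fga minus Fgg, and 9.11% against 6.24% for Fgb minus Fgg. The highest share on any other chromosome was 15.4%, 7.52% and 9.68% in the same order of differences. These are counts, with no test of their own, from a setting added after the data were seen.

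With the 5 components removed, Pi4kb had r = 0.587 with Fga minus Fgb, Asic5 0.576, Ppm1l 0.506 (named after its value was seen, as H2bc21 was), Aadac -0.567, H2bc21 -0.533 and Glt28d2 -0.508. The same 6 genes led Fga minus Fgg, at 0.547, 0.537, 0.492, -0.502, -0.493 and -0.487. The 2 differences share Fga, so they are not separate evidence. The genes lay up to 220 measured genes from the chains, on both sides of them. Genotypes were not analysed here, and neighbours on a chromosome are inherited together in an F2 cross.

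**Figure D5:**
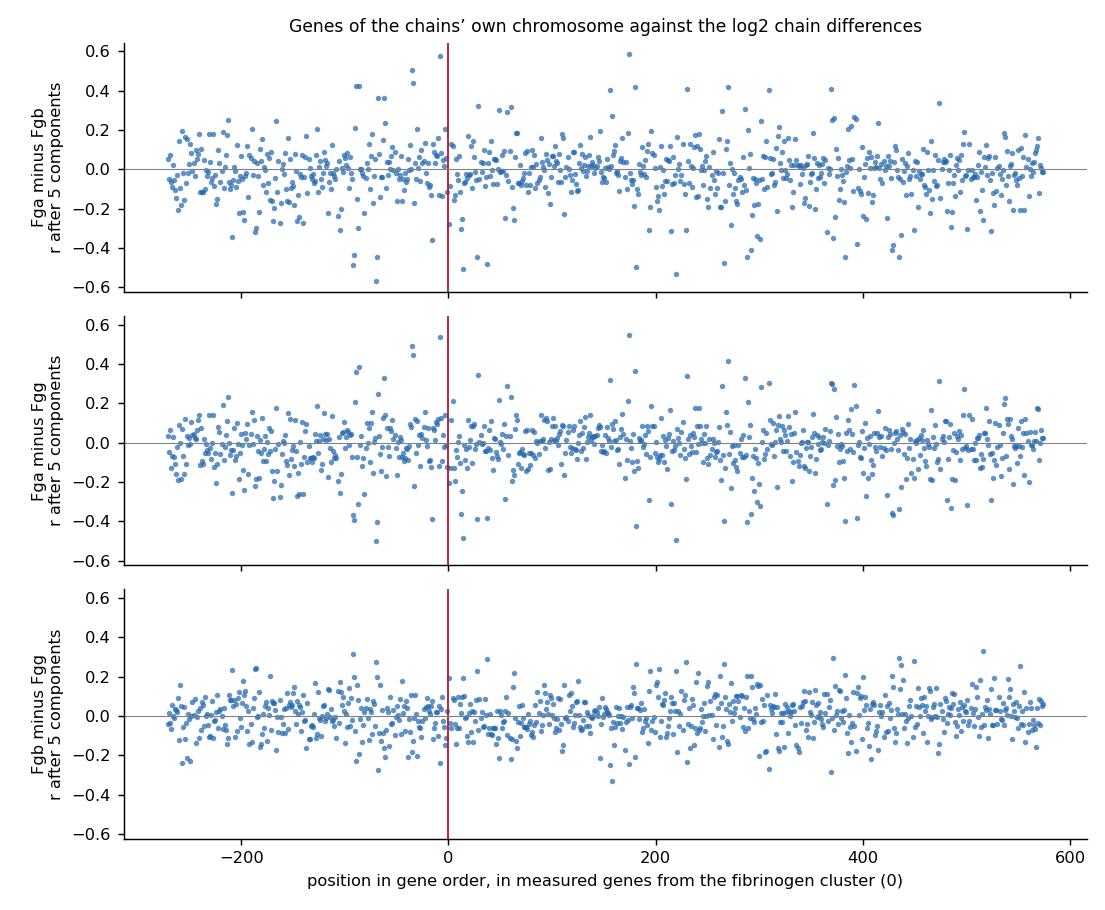
Pearson r, after removal of 5 principal components, of each measured gene of chromosome 3 with the 3 log2 chain differences (vertical axes), against its position in gene order from the fibrinogen cluster (horizontal axis, red line at 0); 1 point per gene. The largest values for the differences that include Fga (Pi4kb at 0.587 and 0.547, Aadac at -0.567 and -0.502) lie on both sides of the cluster, and the largest for Fgb minus Fgg is S100a10 at -0.332.

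With Fga minus Fgg, limma called 33% of genes. An upper cluster of 10 animals stood apart in this difference, so r is over the other 284. Of the genes chosen over all animals, Atp5d, an ATP synthase subunit (0.453), Ncaph2 (0.451) and Hdgf (0.422) were highest, below Pi4kb (0.549), and the lowest were Usp1 (-0.502), Gpbp1 (-0.476), Thoc1 (-0.475), Itfg1 (-0.46) and F9 (-0.436). With Fgb minus Fgg, limma called 33.5%, led by Nop53 (r = 0.533, rho = 0.515) and Srsf9, a splicing factor (0.498, rho = 0.509), with Mdh1, a malate dehydrogenase, lowest (-0.488, rho = -0.474). The adjusted permutation p of these last 3 was 0.000113 for r and 0.000122 for rho, again the smallest possible. Over all genes the shares called positive and negative were 15.1% and 12.9% with Fga minus Fgb, 20.2% and 12.8% with Fga minus Fgg, and 20.9% and 12.5% with Fgb minus Fgg. Of 26 coagulation genes, 0 were positive and 18 negative with Fga minus Fgb, 3 and 11 with Fga minus Fgg, and 14 and 2 with Fgb minus Fgg. The 27 acute phase genes gave 1 positive and 16 negative with Fga minus Fgb, 0 and 10 with Fga minus Fgg, and 10 and 1 with Fgb minus Fgg. Fga minus Fgb and Fga minus Fgg fell with the chain mean (r = -0.534 and -0.489). With that mean 15 of the coagulation and 23 of the acute phase genes were positive. The counts with these differences are therefore not separate from the relation to the chain mean. Markers of non-parenchymal cells were also called. With Fga minus Fgb, 5 of 10 endothelial (median r -0.143) and 2 of 12 Kupffer cell and macrophage markers were negative and 0 positive. With Fgb minus Fgg, 7 of 10 endothelial and 6 of 12 Kupffer cell and macrophage markers were positive and 0 negative, with median r of 0.199 and 0.145 against 0.006 over all genes. Over all animals neither list held a call with the chain mean, and the part of these cells in the chain balance was not tested.

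Of the 20 nearest measured genes, 10 on either side of the cluster, 5 were related to the chain mean, where 31.7% of all genes were. Plrg1, a spliceosome gene next to the chains, had r = 0.316 in its main cluster of 290 animals. Tmem131l had r = -0.305 (rho = -0.172), Arfip1 0.296 (rho = 0.131, adjusted permutation p = 0.0864 for rho), Mnd1 -0.278 (rho = -0.258) and Trim2 0.241 (rho = 0.213). Arfip1 had an adjusted p of 0.394 without the 27 least correlated arrays, and with 5 components removed Tmem131l had r = 0.08, Arfip1 -0.0105 and Mnd1 -0.0294 (adjusted p = 0.802). Lrat, the nearest gene on the other side, had r = -0.124 and did not pass the test. Among the same 20 genes, 9 were related to Fga minus Fgb, where 27.9% of all genes were, and the number was 5 under quantile normalization and 3 with 5 components removed. Tdo2, a tryptophan dioxygenase gene 9 genes away, had r = -0.322 with Fgb minus Fgg, against 0.0532 with 5 components removed.

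Eif2s3y, a gene of the Y chromosome, separated the animals by a gap in log2 intensity between 3.03 and 6.97, with the remaining animals above it and 148 below it, and no sex was assigned from it. The chain mean was 13.60 ± 0.12 above the gap and 13.61 ± 0.09 below it (SD). Fgb averaged 13.72 ± 0.15 above and 13.75 ± 0.11 below, Fga 13.65 ± 0.10 above and 13.66 ± 0.08 below, and Fgg 13.43 ± 0.14 above and 13.43 ± 0.11 below. The 2 classes overlapped over nearly their whole range in each chain. Fgb minus Fgg had a median of 0.28 above and 0.31 below, and the 3 Y-linked genes measured were negative with it (r between -0.263 and -0.232) and none of the 3 passed with the chain mean over all animals. Leaving out the 27 least correlated arrays, 2 of 3 were negative with the chain mean (median r -0.156). Stat3 correlated with the chain mean at r = 0.716 above the gap and 0.497 below it, and limma's test of the difference in slope gave an adjusted p of 0.778.

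The slope on the chain mean differed across the gap for 1.24% of all genes. Among acute phase and coagulation genes named here, Crp rose by 0.11 above the gap and 0.04 below it on the log2 scale per SD of the chain mean (adjusted p = 0.00518). Serpina10 rose by 0.20 above and 0.12 below (adjusted p = 0.00919). Leaving out the 27 least correlated arrays, 0.463% of genes were called, and the adjusted p was 0.129 for Crp and 0.511 for Serpina10.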

How the data were processed

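Liver RNA of 294 animals was measured on Affymetrix arrays, 1 array each. The deposited table holds linear intensity values, summarised with RMA per the submitters' processing notes, whose version and genome build are not given in the sources used here. RMA makes arrays alike in distribution, and array medians ran from 21.1 to 23.2. The values were taken to log2 with no pseudocount, the brightest probe stood for a gene, and symbols were updated through RefSeq (2830 by synonym). The number of arrays, with no read depth, limits the precision.

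Every gene was regressed on the chain mean, each chain and each log2 difference with limma 3.58.1 (R 4.3.3), with Benjamini-Hochberg adjustment over 16640 genes and a threshold of 0.05. Label blocks were tested by limma's F test, and slopes across the Eif2s3y gap by an interaction. Correlations had two-sided permutation tests of 100000 draws (Python 3.11.15, scipy 1.17.1). Those adjusted over all genes used all 294 animals. Where a mixture of normals split a gene (BIC gain above 10, cluster means separated by over 3 SD), r came from each cluster alone. On simulated data, 37% of 100 genes planted at 0.2 SD and 100% at 0.4 SD were recovered among 16640, with 7 false calls, for the regression on the chain mean.

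Named were the chains, Stat3, up to 6 highest and 2 lowest members of each list by r with the chain mean, the 15 highest and 8 lowest other genes, the 5 highest per chain, 6 per end of each difference, called neighbours and up to 8 interaction genes. The members and the 18 lists were chosen with earlier results of these data known. Alternatives were quantile normalization, a pseudocount of 16, the mean of all probes, bright genes only, the block, the Eif2s3y class or principal components as covariates, and leaving out 27 least correlated arrays or 44 animals high in pancreas, muscle or neutrophil genes.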

Additional observations from a re-analysis of the deposited data

Results flagged for a closer look

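By limma's interaction test with adjustment over all genes, the slope on the chain mean differed across the Eif2s3y gap for 1.24% of genes. Among them were 14 named genes. Sod2, Parp16, Pcyox1, Gpam, Pygl, Phka2, A630026N12Rik and Elovl5 were named because of this same test. Only named genes that passed it are given here, so the count of 14 cannot be compared with the share over all genes. The difference, slope above minus slope below on the log2 scale per SD of the chain mean, was 0.08 for Sod2 (0.00 above, -0.08 below, adjusted p = 3.76e-06) and 0.21 for Parp16 (0.07 above, -0.15 below, adjusted p = 5.42e-05). It was -0.07 for Pcyox1, -0.17 for Gpam, -0.12 for Pygl, -0.09 for Phka2, -0.12 for A630026N12Rik and -0.22 for Elovl5, a fatty acid elongase (-0.21 above, 0.01 below, adjusted p = 0.00149). Among acute phase, coagulation, secretory and other named genes it was 0.07 for Crp, -0.15 for Klkb1, 0.06 for Osbpl9, 0.08 for Serpina10, 0.09 for Atf4 and 0.11 for Dnajc3. Without the 27 least correlated arrays 5 of the 14 were still called (Elovl5, Gpam, Osbpl9, Pcyox1 and Sod2), and 9 of 14 with 5 principal components removed. The difference of Osbpl9 was 0.00275 with the mean of all its probes (adjusted p = 0.976).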

How the results depend on the processing

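No paired analysis was possible because the animals form a single group. Of 178 recomputed values of 19 main results, 25 were counted as moved. A value not counted as moved was not always close to the reported one. With 5 principal components removed, r of Stat3 with the chain mean was 0.435, against the reported 0.624. Fga with Fgb had r = 0.507 with those components removed and 0.549 under quantile normalization, against the reported 0.643. None of these values was counted as moved. Of 1008 values of single genes, 942 stayed on the same side of the threshold, with the same direction where they were called. Direction was not compared where neither value was called. A further 46 lost and 13 gained the call with direction kept, and 7 with a call on either side reversed. The cause was not tested. The setting with bright genes only was run for results over many genes, and gave 3.53% of genes in the interaction, out of fewer genes tested.

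Quantile normalization gave an SD of 0.0959 for Fga minus Fgg and 0.0705 for Fgb minus Fgg, 5 called neighbours with Fga minus Fgb and 2.19% of genes called in the interaction. The block as covariate gave an SD of 0.0788 for Fga minus Fgg. Leaving out the 27 least correlated arrays, which also lowers the number of animals, gave an SD of 0.0783 for Fga minus Fgg, 3510 genes called with the chain mean, 3654 with Fgg, 2715 with Fga minus Fgb, 3535 with Fga minus Fgg and 0.463% of genes in the interaction. Leaving out 44 animals high in pancreas, muscle or neutrophil genes gave 0.631% of genes in the interaction.

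Removing 5 principal components, chosen after seeing the data, gave SDs of 0.0833 for Fga minus Fgb, 0.0673 for Fga minus Fgg and 0.0491 for Fgb minus Fgg. It called 3276 genes with the chain mean, 2323 with Fga, 3231 with Fgb, 3023 with Fgg, 1858 with Fga minus Fgb (3 neighbours), 997 with Fga minus Fgg, 1062 with Fgb minus Fgg and 0.559% of genes in the interaction. The fifth component itself had r = 0.647 with the chain mean. Reversed values of r with the chain mean were -0.0481 for Hnf4a, -0.177 for Prox1, 0.08 for Tmem131l, -0.0105 for Arfip1 and 0.0824 for Klkb1, and 0.0532 for Tdo2 with Fgb minus Fgg. Klkb1 also reversed without the 27 arrays (0.0821).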
